A study of Mus musculus with 2 samples.

Results

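The miRNAs of the imprinted Dlk1-Dio3 domain were described in the testes of adult mice. The members were picked by their miRBase numbers and not by a measured value, though with earlier results of these data known. In all, 91 mature miRNAs from 46 hairpins carried 1 of the listed numbers, out of 1905 mature miRNAs counted. All 46 hairpins were found on the plus strand of chromosome 12 in the RefSeq annotation of GRCm38 (mm10), from miR-770 (chr12:109563692-109563785) to miR-410 (chr12:109743715-109743795). They lie between Dlk1 (chr12:109452823-109463336) and Dio3 (chr12:110279068-110281097), so that the name of the cluster holds for every member.

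The samples were 2 sncRNA-Seq libraries of decapsulated testes from C57BL/6 mice (C57BL/6J in the methods) at postnatal day 60, 1 for each condition. One library held pooled RNA of mice given a mixture of EDCs, made of DEHP, DBP and BBP (phthalates, 0.3 mg per kg and day each) and NP and OP (alkylphenols, 0.05 mg per kg and day each). The other held pooled RNA of control mice that drank water with the vehicles DMSO and ethanol, which the mixture also contained. Treatment of both groups began in the pregnant mothers at post-coital day 0.5 and went on in their sons to the end point. Each pool combined equal amounts of RNA (n = 3), which leaves no spread between mice in the data. The libraries held 550261 (control) and 501539 (exposed) reads on mature miRNAs. Germ cell miRNAs were abundant in both, with 45779 and 38088 reads of miR-34c-5p, and the Sertoli cell miRNA miR-202-5p had 2069 and 2106. With 1 library for each condition, every test below compares these libraries and not the conditions. Intervals are exact (Clopper-Pearson, 95%) and cover counting error only. PCR copies are not independent molecules, and the true error may be wider. In a pooled whole testis, fewer cells of a type and less RNA per cell cannot be told apart.

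A miRNA is cut from a hairpin in its primary transcript, and each hairpin can give a mature miRNA from its 5p and its 3p arm. Bases 2 to 8 of the mature form are the seed, which pairs with target mRNAs. In the Dlk1-Dio3 domain, the protein-coding genes Dlk1, Rtl1 and Dio3 are expressed from the paternal chromosome, and the noncoding transcripts Meg3, antisense Rtl1, Rian and Mirg, with the miRNAs they carry, from the maternal one. A differentially methylated region between Dlk1 and Meg3 acquires its methylation in the male germ line. The miRNAs are known from embryo, placenta and brain. Those opposite Rtl1 match its mRNA perfectly and direct its cleavage in the mouse, and those from miR-379 to miR-410 form a dense array that has been studied in neurons and in the neonatal liver.

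The mature sequences of the 13 members whose reads summed to at least 50 over the libraries are shown because they carry most reads of the cluster. They come from RefSeq (GRCm38.p6), which gave a mature sequence for 87 of the 91 members. Capitals mark the seed, and the lines follow the order of abundance.
miR-127-3p: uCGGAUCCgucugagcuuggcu
miR-379-5p: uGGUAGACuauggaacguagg
miR-541-5p: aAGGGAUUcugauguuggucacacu
miR-411-5p: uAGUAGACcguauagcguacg
miR-434-5p: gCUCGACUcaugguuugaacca
miR-434-3p: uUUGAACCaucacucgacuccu
miR-409-3p: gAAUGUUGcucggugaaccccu
miR-381-3p: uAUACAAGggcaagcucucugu
miR-337-5p: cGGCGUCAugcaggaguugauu
miR-136-3p: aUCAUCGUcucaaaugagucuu
miR-409-5p: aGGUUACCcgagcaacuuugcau
miR-300-3p: uAUGCAAGggcaagcucucuuc
miR-134-5p: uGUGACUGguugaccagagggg

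These 13 members had 13 different seeds. The seeds of miR-379-5p and miR-411-5p, whose hairpins are neighbours, differed at 1 base. With miR-379-5p as the reference and positions counted from its 5′ end, their only difference within the seed was G2A, and the others were U9C, A10G, G12A, G13U, A15G and G20C. The seed of miR-379-5p was shared by miR-1193-5p, which had 0 reads in both libraries. The seeds of miR-381-3p and miR-300-3p also differed at 1 base (A4G, miR-381-3p as the reference), and over the whole length G21U and U22C were added. The authors' alignment allowed 3 mismatches and kept the best matches of each read. How reads were divided between miRNAs this close, such as miR-381-3p and miR-300-3p, was not tested, so their values are uncertain to that extent. For miR-379-5p and miR-411-5p, no other miRNA among the sequences compared came within 3 mismatches. Of all members with a sequence, 11 had such a close copy (at most 3 mismatches), 5 of them among the members with at least 10 reads.

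The cluster took a small share of the testis miRNAs. Its members summed to 2057 reads in control mice, 0.374% of the mature reads (0.358 to 0.390%), and to 1576 reads in exposed mice, 0.314% (0.299 to 0.330%). At least 1 read was found for 57 members in control and for 55 in exposed mice, and 46 were found in both libraries. The 11 members seen only in control mice had at most 3 reads, and the 9 seen only in exposed mice at most 4. The remaining 25 members had 0 reads in both libraries. At this depth, the exact interval allows each a share of up to 0.000670% in control and 0.000736% in exposed mice. Of all 1905 mature miRNAs, 663 were found in both libraries and 1037 in neither. Reads in control mice only were found for 108 of them (at most 9 reads), and in exposed mice only for 97 (at most 7). A minimum of 10 reads in both libraries together was met by 32 members (35.2%), against 484 of all 1905 mature miRNAs (25.4%). The tested members were lower in level than the tested miRNAs as a whole, with a median of 16.5 reads in control mice against 65.5. For comparison, the X-linked clusters between Slitrk2 and Fmr1, which are expressed mainly in male germ cells, took 22.5% of the reads in control and 21.8% in exposed mice, and 36 of their 40 miRNAs reached the minimum. The intervals of these shares (22.4 to 22.6% in control mice) lie far from those of the Dlk1-Dio3 cluster. No further test was made of that difference.

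**Figure D1:**
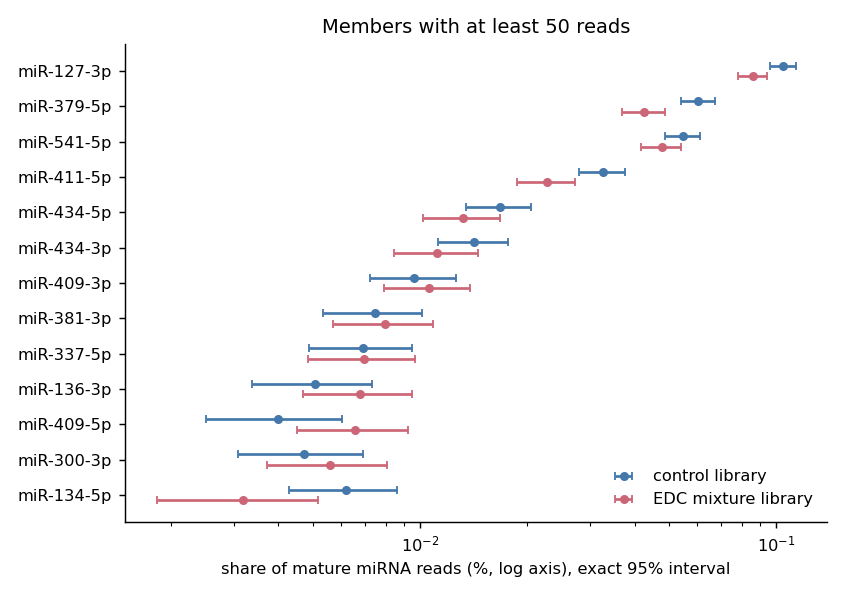
Share of mature miRNA reads (%, log axis) of the 13 members with at least 50 reads, for control and for exposed mice. Points are shares and bars are exact 95% intervals. miR-127-3p led in both libraries, and the intervals of the members below miR-411-5p run into each other from line to line.

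miR-127-3p was the most abundant member in both libraries. This miRNA lies opposite the coding exon of Rtl1, whose mRNA it targets. It had 574 reads in control mice (0.104% of the mature reads, 0.0960 to 0.113%) and 430 in exposed mice (0.0857%, 0.0778 to 0.0942%), and ranked 115 and 121 among all miRNAs. It made up 27.9% of the reads of the cluster in control and 27.3% in exposed mice.

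The next members were miR-379-5p, the first miRNA of the array studied in neurons, and miR-541-5p, from the Mirg part of the cluster. miR-379-5p had 332 and 213 reads (control and exposed), and miR-541-5p had 301 and 239. Their order turned between the libraries, but in neither did they differ beyond their intervals. miR-411-5p followed with 179 and 114 reads. These 4 members together held 67.4% of the reads of the cluster in control and 63.2% in exposed mice.

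Below them the levels fell without clear steps. miR-434-5p had 92 and 66 reads and miR-434-3p, from the same hairpin, 78 and 56. miR-409-3p had 53 in each library, miR-381-3p 41 and 40, and miR-337-5p 38 and 35. For miR-136-3p the reads were 28 and 34, for miR-409-5p 22 and 33, for miR-300-3p 26 and 28, and for miR-134-5p, which limits the growth of dendritic spines in rat neurons, 34 and 16. Among the 12 pairs of neighbours in the order of these 13 members, the intervals were apart for 3 in each library: below miR-127-3p, above miR-411-5p and below miR-411-5p. The members with at least 50 reads held 87.4% of the reads of the cluster in control and 86.1% in exposed mice. Another 19 members had 10 to 49 reads and 34 had 1 to 9. Over the 32 tested members the reads of the libraries went together (Spearman's rho 0.88, Pearson's r 0.94 on log2 reads). This is a description across miRNAs that share both libraries.

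Reads were spread over the whole domain but were concentrated in a few hairpins. Of the 46 hairpins, 41 had at least 1 read on either arm, 16 of them fewer than 10. The hairpins of miR-882, miR-666, miR-654, miR-487b and miR-539 had none. The 5 hairpins with the most reads were miR-127, miR-379, miR-541, miR-411 and miR-434, and they held 77.5% of the reads of the cluster in control and 72.7% in exposed mice.

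**Figure D2:**
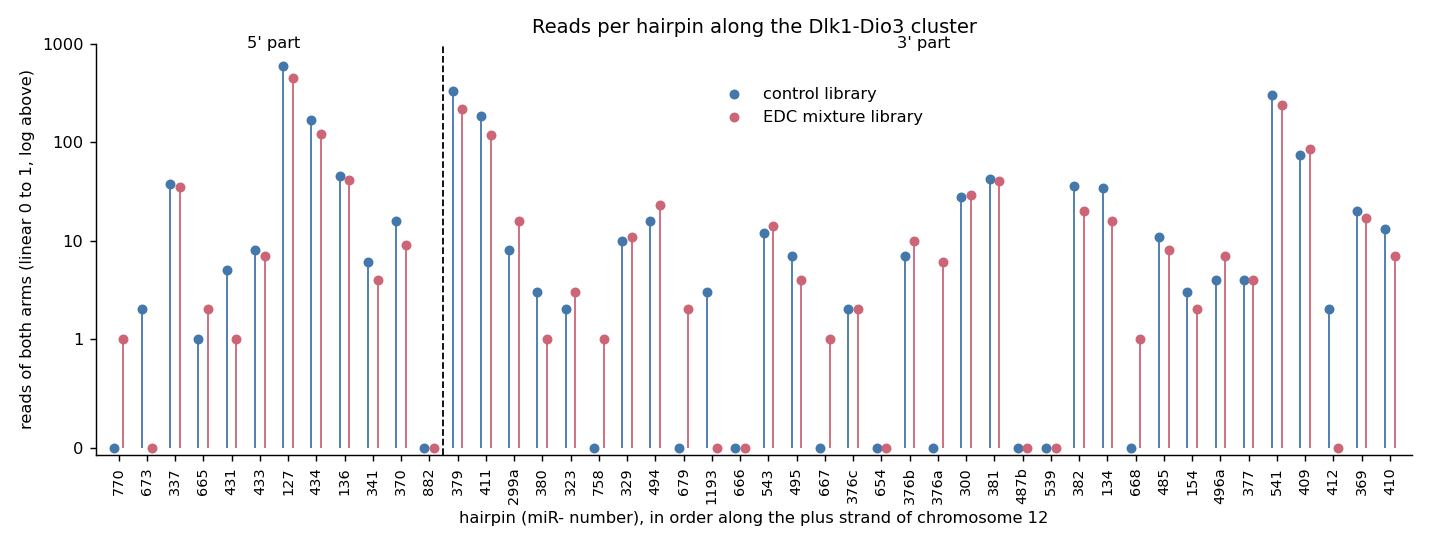
Reads of both arms of each hairpin (vertical axis, linear from 0 to 1 and logarithmic above), in the order of the hairpins along the plus strand, for the control library and the library of exposed mice. The dashed line parts the 12 hairpins of the 5′ part from the 34 of the 3′ part. The highest points stand at miR-127 and miR-434, at miR-379 and miR-411, and at miR-541 and miR-409, with hairpins of few or 0 reads between them.

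The cluster was parted at the hairpin of miR-379 (chr12:109709060-109709125). The 5′ part, from miR-770 to miR-882, held 12 hairpins over 118.582 kb, and the 3′ part, from miR-379 to miR-410, held 34 hairpins over 34.736 kb. The denser 3′ part had 1166 of the 2057 reads of the cluster in control mice (56.7%, 54.5 to 58.8%) and 906 of 1576 in exposed mice (57.5%, 55 to 59.9%), so that the split was the same within counting error. Reads were found for 11 of the 12 hairpins of the 5′ part and for 30 of the 34 of the 3′ part, and 7 and 18 of them had at least 10 reads. The median hairpin had 12.5 reads in the 5′ part and 11 in the 3′ part over both libraries. Without the leading member of each part, miR-127-3p and miR-379-5p, the share of the 3′ part was 72.5% in control and 74.3% in exposed mice.

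In the 5′ part, nearly all reads came from the hairpins opposite Rtl1. According to GENCODE M21, the hairpins of miR-431, miR-433, miR-127, miR-434 and miR-136 lie antisense to an exon of Rtl1 (chr12:109589193-109600330, minus strand). These 5 held 828 reads in control mice, 40.3% of the cluster, and 619 in exposed mice, 39.3%. miR-127 (600 and 448 reads of both arms) and miR-434 (170 and 122) made up 93% and 92.1% of that sum. miR-433, whose hairpin ends 1007 bp before that of miR-127, had 8 and 7 reads, and miR-431 had 5 and 1. miR-341 and miR-370, in an intron of Rian, had 22 and 13 reads together. Upstream, miR-337 had 38 and 35 reads, while miR-770, which overlaps an exon of Meg3, miR-673 and miR-665 had at most 2 in either library.

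In the 3′ part, the highest hairpins were miR-379 and miR-411 at its start and miR-541 near its end. miR-379 and miR-411, 1049 bp apart, had 335 and 187 reads of both arms in control mice and 217 and 119 in exposed mice. The next hairpin, miR-299a, had 8 and 16 reads. Between miR-379 and Mirg lie 22 hairpins with no annotated host on their strand, and miR-379 and miR-411 held 78.9% of their 662 reads in control and 67.3% of their 499 reads in exposed mice. Within this stretch 4 hairpins had 0 reads, and miR-381 (42 and 40) and miR-300 (28 and 29) were the highest after the first pair. The 12 hairpins in exons (8) or introns (4) of Mirg held 24.5% of the reads of the cluster in control and 25.8% in exposed mice. There, miR-541 (302 and 239) and miR-409 (75 and 86), both in an intron, made up 74.8% and 79.9%. The hairpins of miR-412 (2 and 0 reads) and miR-369 (20 and 17) lie within 52 and 49 bp of their neighbours upstream and were lower than miR-409.

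In most hairpins with at least 10 reads, 1 arm held at least 90% of the reads, much as over the whole table. Which arm led varied along the cluster. Both arms were listed for 45 hairpins, of which 25 had at least 10 reads. The 5p arm led in 9 of them and the 3p arm in 16. In 17 of the 25 (68.0%) the leading arm held at least 90% of the reads, against 171 of 276 hairpins of the whole table (62.0%), and its median share was 95.8% against 95.2%. The 5p arm led in 2 of 7 hairpins of the 5′ part and in 7 of 18 of the 3′ part.

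Hairpins with different arm use are shown with both mature arms in capitals, from RefSeq. miR-127 stands for the use of the 3p arm, miR-541 for the 5p arm, miR-434 for both arms, and miR-136 and miR-382 for the widest differences between the libraries among hairpins with at least 50 reads.
miR-127: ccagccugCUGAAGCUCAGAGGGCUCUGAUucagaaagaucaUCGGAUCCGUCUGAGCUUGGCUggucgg
miR-541: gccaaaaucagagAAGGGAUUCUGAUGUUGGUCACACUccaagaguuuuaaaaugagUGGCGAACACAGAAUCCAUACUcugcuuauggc
miR-434: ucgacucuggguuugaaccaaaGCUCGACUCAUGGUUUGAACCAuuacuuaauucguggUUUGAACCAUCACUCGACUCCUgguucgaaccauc
miR-136: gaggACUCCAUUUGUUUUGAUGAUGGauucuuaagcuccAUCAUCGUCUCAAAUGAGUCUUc
miR-382: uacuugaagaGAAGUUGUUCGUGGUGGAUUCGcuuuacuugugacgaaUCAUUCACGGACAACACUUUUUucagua

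miR-127 had 26 reads on the 5p arm and 574 on the 3p arm in control mice, and 18 and 430 in exposed mice. The 5p share was 4.33% (2.85 to 6.29%) and 4.02% (2.40 to 6.28%). Its neighbour miR-434 used both arms to nearly the same extent, with 5p shares of 54.1% (46.3 to 61.8%) and 54.1% (44.8 to 63.2%). Thus the hairpins with the most reads opposite Rtl1 differed in arm use beyond their intervals in each library.

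The hairpins at the start of the 3′ part used the 5p arm. The 5p share was 99.1% and 98.2% for miR-379, and 95.7% and 95.8% for miR-411. From miR-299a to miR-381, in contrast, the 3p arm led in every hairpin with at least 10 reads except miR-329, with 5p shares of 2.38% and 0% for miR-381 and of 7.14% and 3.45% for miR-300. In Mirg the leading arm varied. miR-541 gave 301 of its 302 reads from the 5p arm in control mice and all 239 in exposed mice, and miR-134 gave all of its 50 reads from that arm. miR-409, the next hairpin after miR-541, used both arms, with 5p shares of 29.3% (19.4 to 41.0%) and 38.4% (28.1 to 49.5%).

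miR-337 gave all of its 73 reads from the 5p arm, which allows the 3p arm a share of up to 4.11% (3 reads). The hairpin of miR-3544 lies on the opposite strand of miR-337, that of miR-3071 opposite miR-136, and that of miR-299b opposite miR-299a. The sources used here do not say whether the counting used the strand. miR-3544 and miR-3071 had 0 reads in both libraries, and the arms of miR-299b had 1 read each in control mice and 0 in exposed mice.

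**Figure D3:**
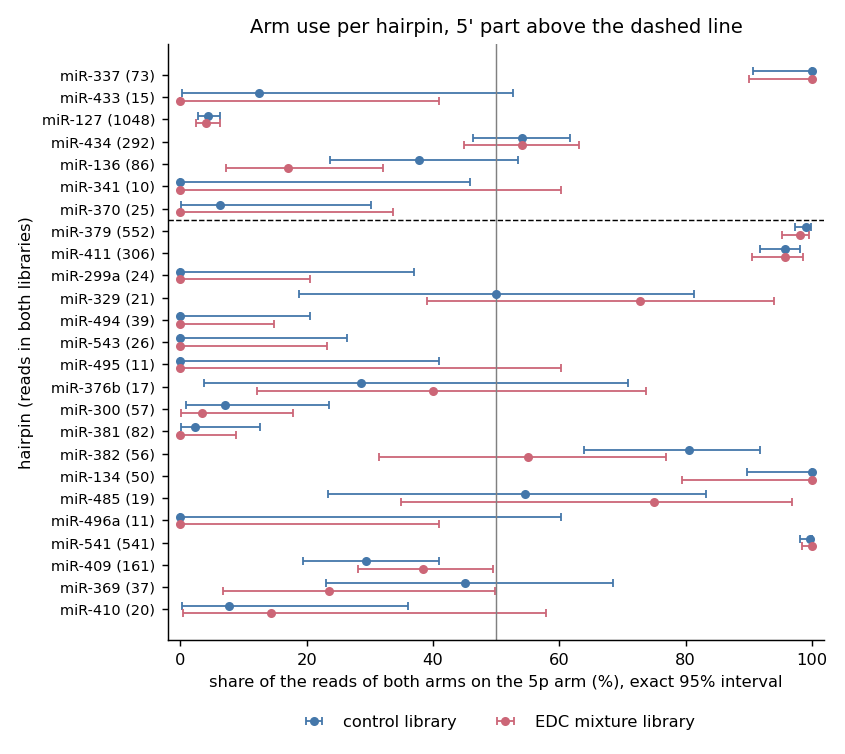
Share of the reads of both arms that lay on the 5p arm (%), for the 25 hairpins with at least 10 reads, in the control library and the library of exposed mice, with exact 95% intervals. Hairpins follow the order along the strand, those of the 5′ part lie above the dashed line, and the number of reads in both libraries stands in parentheses. The points of the deep hairpins miR-127, miR-434, miR-379, miR-411 and miR-541 lie on top of each other.

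Arm use was compared between control and exposed mice for each hairpin, a comparison that does not depend on the scaling of the libraries. No member hairpin was called at an adjusted p under 0.05 (2-sided Fisher's exact test of the reads, Benjamini-Hochberg over 276 hairpins) with a difference of at least 10 percentage points, nor was any hairpin of the whole table (0%). At any size the background was 12 of 276 hairpins (4.35%), and no member was among them. At an unadjusted p under 0.05 the count among the 25 members was also 0. miR-136 had 17 reads on the 5p and 28 on the 3p arm in control mice, and 7 and 34 in exposed mice. Its 5p share was 37.8% (23.8 to 53.5%) and 17.1% (7.15 to 32.1%), with p = 0.0530 by Fisher's exact test (adjusted p = 0.486). miR-382, which lies in an exon of Mirg, had 29 reads on the 5p and 7 on the 3p arm in control mice, and 11 and 9 in exposed mice. The 5p share was 80.6% (64.0 to 91.8%) and 55% (31.5 to 76.9%), with p = 0.0642 by Fisher's exact test (adjusted p = 0.510). For both, the intervals of the libraries overlap.

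Exposed mice were then compared with control mice for each mature miRNA. Reads were divided by size factors (median of ratios, 1.07 for control and 0.937 for exposed mice), and a 2-sided exact binomial test was run on each of the 484 miRNAs with at least 10 reads, with Benjamini-Hochberg adjustment over all 484. A miRNA was said to have risen or fallen where the adjusted p was under 0.05 and the log2 ratio was 0.5 or more in size. None of the 32 tested members rose or fell, against 3 that rose (0.62%) and 11 that fell (2.27%) among all miRNAs tested, 2.89% in both directions. At an adjusted p under 0.05 and any size, 2 of 32 members (6.25%) were lower and 0 higher, against 45 lower (9.3%) and 40 higher (8.26%) of all tested. With scaling by total reads that background was 69 lower and 34 higher. The median log2 ratio of the 32 members was −0.04, the same as over all 484, with 16 members above 0 and 16 below.

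**Figure D4:**
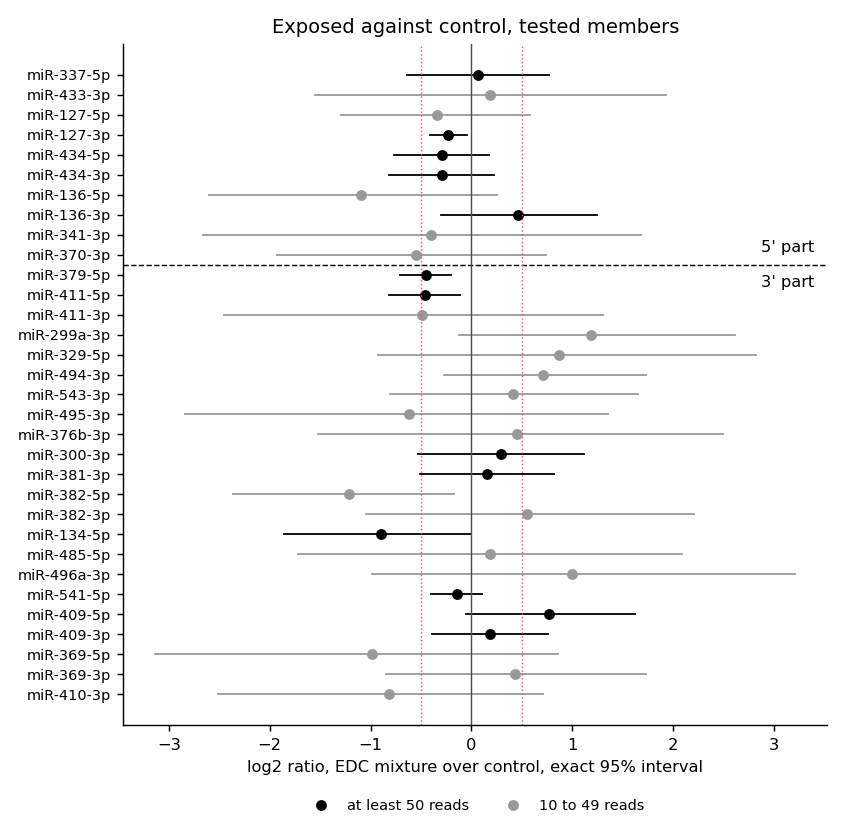
log2 ratio of exposed over control mice for the 32 tested members in their order along the strand, with exact 95% intervals. Black marks members with at least 50 reads and grey those with 10 to 49, dotted lines stand at −0.5 and 0.5, and the dashed line parts the 5′ from the 3′ part. The narrow intervals of miR-379-5p, miR-127-3p and miR-411-5p lie below 0, and those of most grey members reach over both dotted lines.

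The members that were lower at any size were miR-379-5p and miR-411-5p, the adjacent miRNAs with related seeds. miR-379-5p had 332 control and 213 exposed reads, which is 311 and 227 after scaling. Its log2 ratio was −0.45 (−0.71 to −0.20, exact binomial test, adjusted p = 0.00275), under the size minimum. For miR-411-5p the reads were 179 and 114, or 168 and 122 after scaling, and the log2 ratio was −0.46 (−0.82 to −0.12, adjusted p = 0.0411, exact binomial test). With scaling by total reads both passed the size minimum, at −0.51 and −0.52. With TMM, miR-411-5p was no longer lower, and with a dispersion estimated over both libraries (edgeR's exact test) neither was, whether p was adjusted or not. The other arms of these hairpins had too few reads to be set against them (3 and 4 for miR-379-3p, 8 and 5 for miR-411-3p).

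miR-127-3p had a log2 ratio of −0.23 (−0.41 to −0.05), with 538 and 459 reads after scaling (adjusted p = 0.0670, exact binomial test). The adjusted p was 0.0137 with scaling by total reads, 0.0282 when the 10 most abundant miRNAs were left out of those totals, and 0.0459 over the miRNAs with at least 50 reads. It was 0.129 with TMM, 0.118 with no minimum of reads and 1 with edgeR's exact test. miR-541-5p was at −0.15 (−0.40 to 0.10), miR-434-5p at −0.29 (−0.77 to 0.18) and miR-434-3p at −0.29 (−0.81 to 0.22). The 6 most abundant members thus all had lower scaled reads in exposed mice, and of these miR-379-5p and miR-411-5p passed the test at any size under the scaling by median of ratios.

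Among the members with at least 50 reads, the lowest log2 ratio was that of miR-134-5p, with 34 and 16 reads (−0.90, −1.86 to −0.00419, exact binomial test, adjusted p = 0.173). The highest were miR-409-5p with 22 and 33 reads (0.77, −0.05 to 1.62), miR-136-3p with 28 and 34 (0.47, −0.30 to 1.24) and miR-300-3p with 26 and 28 (0.29, −0.53 to 1.12). miR-409-3p, miR-381-3p and miR-337-5p were at 0.19, 0.15 and 0.07, each with an interval that held 0. Of these 13 members 11 lay within 0.5 of 0 on the log2 scale (84.6%), against 290 of all 317 miRNAs with at least 50 reads (91.5%), and the median was −0.15 against −0.03. A log2 ratio of 0.5 or above was found for 6 of the 32 tested members (18.8%, against 8.47% of all tested) and of −0.5 or below for 7 (21.9%, against 13.2%), with no test. These shares are not matched for reads. The median in control mice was 16.5 reads for the members against 65.5 for all tested, and ratios of few reads vary more by counting. The interval lay wholly below 0 for 5 of the 32 tested members (miR-411-5p, miR-379-5p, miR-127-3p, miR-382-5p and miR-134-5p) and wholly above 0 for none, against 15.5% and 11.2% of all tested miRNAs, without adjustment. miR-382-5p had 29 and 11 reads (−1.21, −2.36 to −0.17, adjusted p = 0.0829, exact binomial test). The authors listed miR-382-5p as down-regulated, at a p of 0.05 or less with DESeq. Here its p was 0.0167 before adjustment (exact binomial test), and it was not called because the adjusted p was above 0.05. With a dispersion estimated over both libraries, its p before adjustment was 0.0900 (edgeR's exact test).

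The summed reads of the cluster had a log2 ratio of −0.20 (−0.29 to −0.10), which is given with no test since the sum is led by a few members. The 5′ part was at −0.22 (−0.37 to −0.08) and the 3′ part at −0.18 (−0.30 to −0.05). The difference of the parts was 0.05 (−0.14 to 0.24, normal approximation of the log ratio of the 4 sums), so that both parts lay below 0 to an extent that could not be told apart by counting. The hairpins opposite Rtl1 were at −0.23 (−0.39 to −0.08), those from miR-379 to miR-539 at −0.22 (−0.39 to −0.05) and those of Mirg at −0.12 (−0.31 to 0.07). The segments of few reads had wide intervals that held 0, with 0.08 (−0.60 to 0.75) for the hairpins from miR-770 to miR-665 and −0.57 (−1.68 to 0.48) for those in Rian. Counted member by member, 7 of 10 tested miRNAs of the 5′ part and 9 of 22 of the 3′ part were below 0, with medians of −0.29 and 0.19. In the 3′ part the median and the sum thus had opposite signs: the sum is led by miR-379-5p, miR-541-5p and miR-411-5p, and each member counts once in the median.

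Markers of other cell types were read beside these values. Of 4 miRNAs of neurons and brain, tissue in which the cluster is known, all were detected, with 1693 control and 1570 exposed reads (log2 ratio 0.08, −0.02 to 0.18). Nearly all were of miR-128-3p (1195 and 1188) and miR-9-5p (453 and 351). The neuronal miR-124-3p had 44 and 30 and miR-219a-5p 1 in each. The 5 germ cell miRNAs summed to a log2 ratio of −0.07 (−0.08 to −0.05), the 2 of Sertoli and other somatic gonad cells to 0.18 (0.10 to 0.27), the 2 of endothelium to −0.16 (−0.23 to −0.09), the 2 of smooth muscle to 0.13 (0.10 to 0.15) and the 3 of striated muscle to 0.33 (0.19 to 0.47), of which miR-206-3p was at 0 in both libraries. Those of red blood cells (3), white blood cells (4) and epithelium (5) were at 0.24 (−0.08 to 0.56), −0.03 (−0.32 to 0.27) and 0.01 (−0.09 to 0.11), and miR-122-5p of the liver had 0 and 1 reads. The sums are led by their most abundant member, and members of a list did not all go together. In striated muscle miR-1a-3p was at 0.43. In endothelium miR-126a-3p was at −0.18 and miR-126a-5p at 0.06. miR-202-5p was at 0.21 and miR-202-3p at 0, and in smooth muscle miR-143-3p was at 0.13 and miR-145a-5p at 0.004. Of all these markers, miR-465a-3p (germ cells, −0.52) and miR-133a-3p (striated muscle, −0.69) fell and none rose. Their part in the values of the cluster was not tested.

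Another 26 mature miRNAs of the table lie between Dlk1 and Dio3 in RefSeq and were not among the members. Over all of them 6 control and 3 exposed reads were counted, and none reached 10. The highest of them, miR-540-3p, had 3 and 2.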

How the data were processed

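The authors checked the reads with FastQC, trimmed adapters with cutadapt, dropped reads under 12 nt, aligned them to mm10 with bowtie (at most 3 mismatches, all best alignments kept) and counted them with HTSeq on mature miRNAs of miRBase v21. Tool versions: not given in the sources used here. The deposited values are raw counts (whole reads), not normalised. Ambiguous reads, 0.528% and 0.515% of the counted reads, name no miRNA and were left out.

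Counts were scaled by the median of ratios. Reads per miRNA were tested with the exact binomial test and arms with Fisher's exact test, over the whole table. The methods were tested on simulated counts that held counting error only. Such counts cannot show how the calls hold with spread between pools or with PCR copies. Named were the members with at least 50 reads, those with an adjusted p under 0.05, and hairpins with at least 50 reads. The members and lists were chosen with earlier results of these data known. The X-linked clusters were taken by RefSeq position. Alternatives were other scalings (total reads, edgeR's TMM), pseudocount, read and size minimums, edgeR's exact test, and other members or boundaries. Sequences and positions came from RefSeq GRCm38.p6 and host genes from GENCODE M21. Python 3.11.15, scipy 1.17.1, R 4.3.3 and edgeR 4.0.16 were used. Precursors, isomiRs and RT-qPCR were not analysed here.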

Additional observations from a re-analysis of the deposited data

How the results depend on the processing

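The count of members that rose or fell (0 of 32) became 2, miR-379-5p and miR-411-5p, with scaling by total reads and with no size minimum. Among all 484 tested miRNAs, 20 rose or fell with scaling by total reads and 85 with no size minimum. Under every other setting run the count of members stayed at 0. The 2 members lower at any size became 3, with miR-127-3p, with total reads, with totals without the 10 most abundant miRNAs and with a minimum of 50 reads. They became 1 with TMM and with no minimum of reads, and 0 with edgeR's exact test, at an adjusted and at an unadjusted p. Among all 484 miRNAs tested, 45 were lower at any size. That number was 69 with total reads, 55 without the 10 most abundant and 39 with TMM, again of 484. It was 47 with a minimum of 50 reads, where 317 miRNAs were tested, 13 of them members. With no minimum it was 40, where the 868 miRNAs with at least 1 read were tested, 66 of them members. Over all miRNAs, 14 rose or fell. This count was 85 with no size minimum, 5 with a log2 size minimum of 1, and 0 (adjusted p) or 4 (unadjusted p) with edgeR's exact test, whose dispersion holds the difference between the libraries. Scaling moved all log2 ratios by at most 0.05. Of 130 values of single members under other settings, 4 passed the call and the rest kept their sign without a call. The read and size minimums leave a log2 ratio as it is, so its sign could not change under them. For miR-127-3p and miR-411-5p the adjusted p did move across 0.05 between settings, as the counts above show. Leaving out the leading member of each part moved the share of the 3′ part to 72.5% in control and 74.3% in exposed mice. The summed log2 ratios, the count of called arms and the pairs apart in the order of levels kept their values within counting error. The order was checked only by leaving out members with a close copy. These lie below the pairs that were apart, so those pairs could not be lost. A boundary at the midpoint of the cluster moved only miR-882, which had 0 reads, so it could not change the shares of the parts. Depth limits most members: 59 of 91 had fewer than 10 reads. No paired analysis was possible because each group has 1 library.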
